A study of Mus musculus with 6 samples.

Results

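The Slc25 genes encode the mitochondrial carriers, the family of transport proteins that moves nucleotides, amino acids, carboxylates, carnitine esters, cofactors, metal ions and phosphate across the inner mitochondrial membrane. The genes described are the rows of the deposited count table whose symbol is Slc25a followed by a number. There were 47 such genes among 25031 genes counted, and 42 of them were expressed above the low-count filter and tested in 1 fit over all 15416 genes that passed. The rule uses the name of the gene only, and members were grouped by the substrate each carrier is known for. All 47 matched, by identifier and symbol, the GENCODE M21 annotation of GRCm38.

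Messenger RNA was sequenced from kidneys of male mice of the inbred strain C57BL/6, wild-type (WT) and 7 to 8 weeks old. In all of them blood flow to both kidneys was stopped for 23 minutes and then restored (ischemia-reperfusion injury, which models acute injury of the kidney), while core temperature was kept at 37 °C. The vehicle group holds 3 libraries from mice given saline, and the CePPy group holds 3 libraries from mice given 5 mg/kg of (+)CePPy by vein straight after the injury. (+)CePPy is a positively charged nanoparticle of polypyrrole doped with cerium. The sources used here do not give the time from injury to collection. Uninjured kidneys were not analysed here, so a level in vehicle is a level in injured tissue.

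Mitochondrial carriers share a common fold and are made in the cytosol, threaded through the outer membrane and inserted into the inner membrane by dedicated import complexes. Tubule cells of the kidney depend on oxidative metabolism for salt and solute reabsorption, so exchange of ADP for ATP, entry of phosphate and fatty acids, and the shuttling of reducing equivalents by the malate and aspartate carriers are prominent in this tissue. The proximal tubule, which makes glucose and ammonia, also uses the dicarboxylate, oxoglutarate and glutamate carriers.

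Total counts per library ran from 29762157 to 37415213, and 1 count equalled 0.0266 to 0.0333 CPM (counts scaled to 1 common library size, with TMM factors). Kidney markers were present in every library: Lrp2, the megalin gene of the proximal tubule, lay between 564 and 1314 CPM, Umod of the thick ascending limb between 2486 and 5406, and the collecting duct water channel gene Aqp2 between 93.3 and 265. Against the vehicle mean, the mean log2 level of 14 proximal tubule markers was 1.25, 0.19 and 0.75 in CePPy 1, 2 and 3. That of 8 tubular injury markers was -1.35, -0.18 and -0.44. By these means CePPy 2 stood nearest to vehicle and CePPy 1 farthest. Of the 8 injury markers, 7 had lower and 1 had higher fitted values. Their summed level was 30768 to 31628 CPM in vehicle and 17358, 33480 and 25738 in CePPy 1, 2 and 3. All 14 proximal tubule markers had higher fitted values in CePPy. At an unadjusted edgeR p under 0.05, 7 of them were higher (9.65% of all genes), and none passed after adjustment. DESeq2 called 5 of the 14 higher, where it called 3.43% of all genes higher. The summed level of those 14 was 13861 to 15600 CPM in vehicle and 14598 to 27333 in CePPy. All 13 mitochondrially encoded genes listed also had higher fitted values, where 50.5% of all genes did. Of these 13, 1 was higher at an unadjusted edgeR p under 0.05 (9.65% of all genes), and DESeq2 called 0. Their summed level overlapped, at 124360, 114700 and 151930 CPM in vehicle and 157760, 140940 and 146590 in CePPy. Of 6 neutrophil markers, Mpo and Elane were at 0 in every library and the other 4 had lower fitted values, with a sum of 32.1 to 47.3 CPM in vehicle and 9.12 to 21.35 in CePPy. The part of these shifts in the carrier values was not tested. In whole tissue, fewer cells of a type and less RNA per cell cannot be told apart. Whether the libraries of a group are separate animals is not stated by the labels, and the p-values then measure only a spread between libraries that may be technical.

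The design compares transcript levels in injured kidneys with and without the nanoparticles. No Slc25 gene passed the quasi-likelihood test of edgeR at an adjusted p under 0.05, and over all genes the share that passed was 0% in the higher and 0.00649% in the lower direction. The clearest difference was Slc25a48, whose p was the second lowest of all 15416 genes tested and whose level in CePPy was 0.602 times that in vehicle. Carriers with higher values were Slc25a23, Slc25a35, Slc25a30, Slc25a42 and Slc25a16, and with lower values Slc25a28, Slc25a22 and Slc25a20 beside Slc25a48. These 9 reached an unadjusted edgeR p under 0.05, which is 21.4% of the 42 members against 19% of all genes tested. DESeq2, run as an alternative, called 5 of them (11.9% of members, against 6.66% of all genes). It called Slc25a23, Slc25a42, Slc25a35 and Slc25a30 higher, where 3.43% of all genes were, and Slc25a48 lower, where 3.23% were.

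By direction, 5 members were higher (11.9%, against 9.65% of all genes) and 4 lower (9.52%, against 9.37%) at an unadjusted edgeR p under 0.05. The count of members is thus near the share over all genes. The split among members changed when a library was left out. It was 5 higher and 1 lower without vehicle 1, and 5 higher and 7 lower without CePPy 1. The share of all genes at that threshold, in either direction, was 19% with all libraries, 12.7% without vehicle 1 and 17.2% without CePPy 1. It was not counted by direction with a library left out, so the changed split cannot be set against all genes. The median log2 fold change over the 42 was 0.07 (0.00 over all genes), with 24 members at higher and 18 at lower fitted values. On the log2 scale 0 of 42 members exceeded 1 in size, where 4.37% of all genes did. Within 0.25 of 0 lay 57.1% of the members and 61.6% of all genes. The members were also well expressed, with a median of 47.6 CPM against 19.3 for all genes tested. The groups did not overlap for 9 members, 21.4% against 26.3% of all genes, 5 of them higher (background 12.3%) and 4 lower (background 14%). With library totals in place of TMM, 3 were higher and 5 lower, while the median log2 fold change of all genes moved to -0.02. The share of all genes without overlap was not counted for that scaling.

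**Figure D1:**
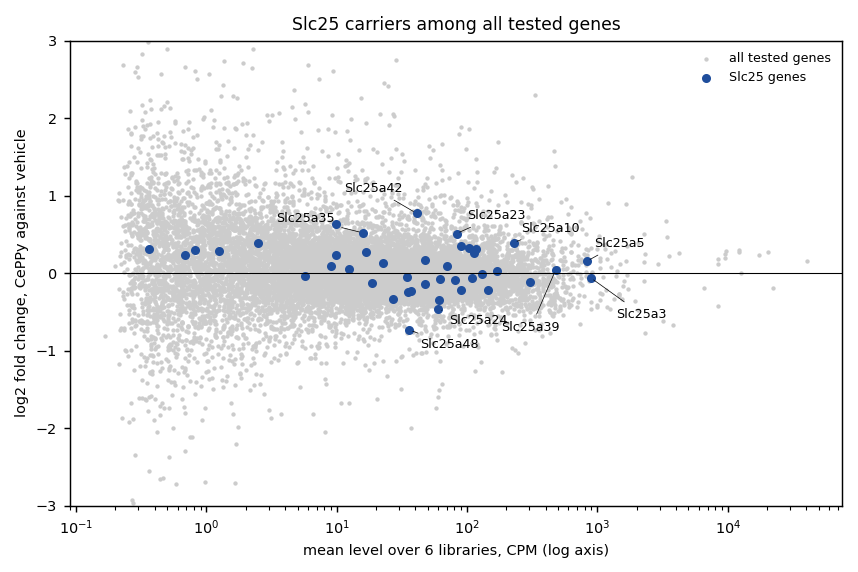
Log2 fold change of CePPy against vehicle (y) by mean level over the 6 libraries in CPM (x, log axis), with all tested genes in grey and the 42 Slc25 genes in blue; 21 grey genes lie beyond the y axis, which ends at 3 in both directions. Slc25a48 lies lowest at -0.73 and Slc25a42 highest at 0.77, inside the grey cloud at their level.

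The promoters of the genes called by DESeq2 are shown because that tool called these members; they are RefSeq sequences on GRCm38.p6, from 250 bases before to 50 after the annotated start, 5′ to 3′ on the gene's strand. Where a gene has several starts the most upstream is printed. Of 47 members, 36 had an entry, and Slc25a35 had none. Capitals mark matches on either strand to the motifs searched: the CCAAT box (CCAAT), the GC box (GGGCGG) and the core of the antioxidant response element (TGACNNNGC).
Slc25a48 (chr13:56438105-56438404, plus strand): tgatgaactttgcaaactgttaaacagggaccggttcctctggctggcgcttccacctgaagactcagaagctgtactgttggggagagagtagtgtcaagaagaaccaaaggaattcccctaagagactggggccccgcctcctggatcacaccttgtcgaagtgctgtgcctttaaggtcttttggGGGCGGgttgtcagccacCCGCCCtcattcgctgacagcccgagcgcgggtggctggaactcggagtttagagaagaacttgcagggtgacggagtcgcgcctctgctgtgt
Slc25a23 (chr17:57059814-57060113, minus strand): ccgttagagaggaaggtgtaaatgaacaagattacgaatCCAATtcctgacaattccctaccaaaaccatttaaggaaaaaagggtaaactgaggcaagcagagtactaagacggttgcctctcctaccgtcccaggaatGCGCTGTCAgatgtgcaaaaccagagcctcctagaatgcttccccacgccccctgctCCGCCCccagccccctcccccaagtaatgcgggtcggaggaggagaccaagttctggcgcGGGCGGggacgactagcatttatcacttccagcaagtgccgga
Slc25a42 (chr8:70212232-70212531, minus strand): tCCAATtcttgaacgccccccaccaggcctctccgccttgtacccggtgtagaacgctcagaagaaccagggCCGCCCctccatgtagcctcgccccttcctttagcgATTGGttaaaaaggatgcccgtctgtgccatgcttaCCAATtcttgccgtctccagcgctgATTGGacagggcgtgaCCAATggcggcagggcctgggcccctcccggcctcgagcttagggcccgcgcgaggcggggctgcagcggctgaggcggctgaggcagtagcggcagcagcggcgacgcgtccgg
Slc25a30 (chr14:75786988-75787287, minus strand): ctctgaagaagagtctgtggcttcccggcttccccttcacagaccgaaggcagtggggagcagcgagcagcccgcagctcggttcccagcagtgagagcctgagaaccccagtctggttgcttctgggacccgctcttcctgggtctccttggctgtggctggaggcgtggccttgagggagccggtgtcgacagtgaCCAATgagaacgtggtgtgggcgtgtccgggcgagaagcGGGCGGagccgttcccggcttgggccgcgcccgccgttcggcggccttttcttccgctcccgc
All 4 promoters hold a GC box, which was found in 30 of the 36 member promoters and in 35.7% of all 32851 promoters in the table. The median GC content was 60.2% for members and 52.7% for all promoters, and the GC box is itself made of G and C. A CCAAT box was found in the promoters of Slc25a23, Slc25a30 and Slc25a42, in 17 of 36 members and in 37.4% of all promoters. It occurred with values of either direction: Slc25a28, with lower values, held 3 copies and Slc25a16, with higher values, held 0. Slc25a42 held 5 copies. The antioxidant response element core, the letters read by NRF2, was found in 8 members, Slc25a23 among them, and in 12.4% of all promoters. The NRF1 palindrome and the PPAR direct repeat were found in 0 of 36 members (0.971% and 0.0396% of all promoters). The ERR motif AAGGTCA was found in Slc25a34 only (4.72% of all), the E-box CACGTG in 6 members (7.15%) and TATAAA in 1, Slc25a18 (13.6%). These are matches of letters in a short window and not shown to be bound.

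**Figure D2:**
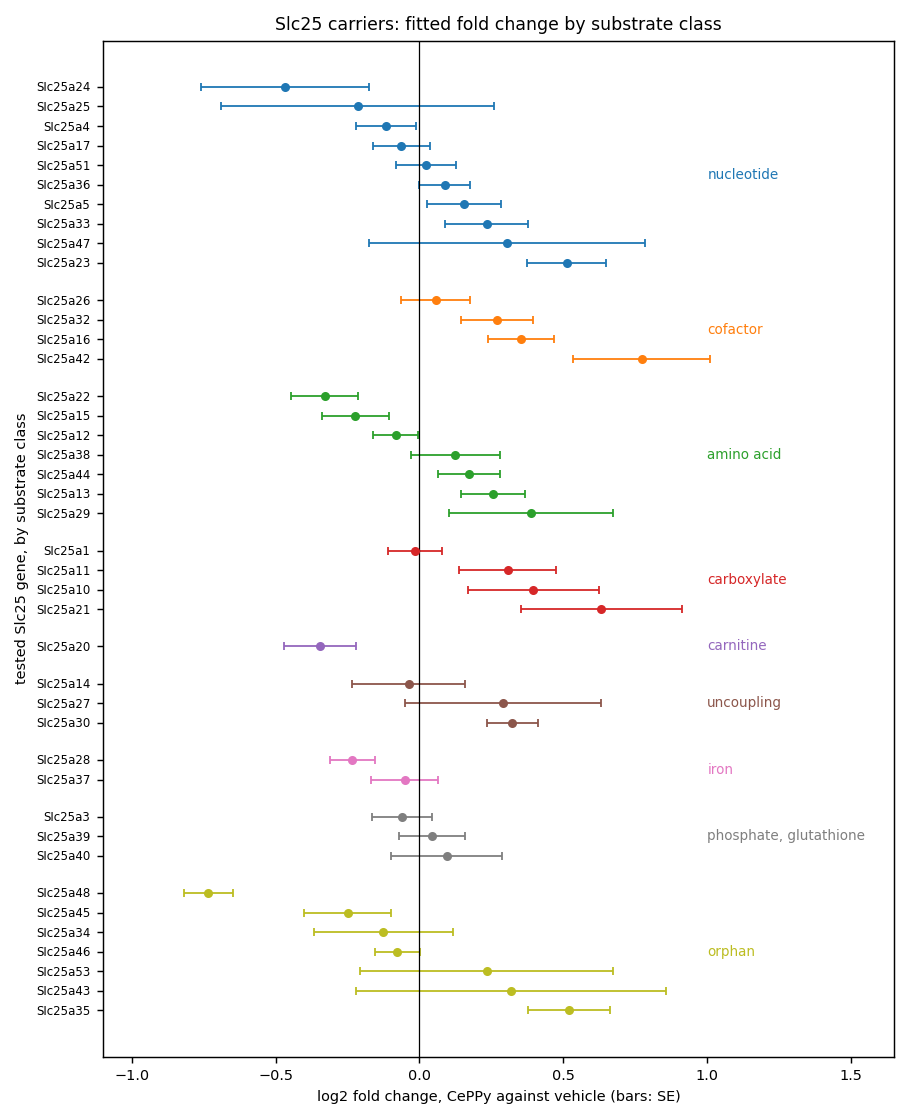
Fitted log2 fold change of CePPy against vehicle (x) for 41 tested Slc25 genes (y), grouped and coloured by substrate class; points are edgeR estimates and bars their SE. Classes mix directions, with the carboxylate and cofactor carriers mostly to the right of 0 and both iron carriers to its left.

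Nucleotide carriers hold the most abundant member per exon length. In CPM, which is not divided by length, the phosphate carrier gene Slc25a3 exceeded Slc25a5 in vehicle (means 909 and 786). In CePPy the means were 871 and 875 CPM. Slc25a5 and Slc25a4 encode the adenine nucleotide translocases, which export ATP made in the matrix in exchange for ADP. Per length, Slc25a5 was the highest of all tested members, at 478 ± 14.2 RPKM (CPM per kilobase of exon) in vehicle and 532 ± 87.2 in CePPy (SD, n = 3 each). Slc25a4 held rank 4, at 134 ± 10.3 and 124 ± 12.1 RPKM. Slc25a5 measured 765, 783 and 811 CPM in vehicle and 1032, 749 and 844 in CePPy, and Slc25a4 measured 339, 291 and 318 and then 318, 261 and 295. The groups overlapped for both genes, with fitted log2 fold changes of 0.15 (SE 0.13) and -0.12 (SE 0.10). Without CePPy 1 the value for Slc25a5 was 0.02. A processed copy of Slc25a5 (Slc25a5-ps, on chromosome 14) could share its reads.

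The ATP-Mg/phosphate carriers, which set the size of the adenine nucleotide pool of the matrix and are opened by calcium, had fitted values of either sign. Slc25a23 measured 70.0, 63.9 and 71.2 CPM in vehicle and 116, 78.4 and 97.9 in CePPy, so each CePPy library lay above each vehicle library. On the log2 scale the difference was 0.51 (SE 0.14; edgeR adjusted p = 0.136; DESeq2 adjusted p = 0.0201). Its paralogue Slc25a24 measured 63.5, 73.0 and 72.2 CPM in vehicle and 26.7, 69.1 and 55.4 in CePPy. CePPy 1 alone was far below the rest, CePPy 2 was inside the vehicle range, and the difference of -0.47 on the log2 scale (SE 0.29; edgeR adjusted p = 0.416) became -0.16 without CePPy 1. Slc25a25, described because of its spread and so chosen after its values were seen, had the largest pooled coefficient of variation of the tested members, 57.6%. Its libraries read 87.1, 69.6 and 131 CPM in vehicle and 54.6, 40.1 and 153 in CePPy, and a fold change of -0.22 (log2, SE 0.47) is well inside that spread. Slc25a41 and Slc25a54, further relatives, had 0 counts in all 6 libraries, which allows at most 0.0798 to 0.10001 CPM, depending on the library (the level of 3 counts, for counting error only).

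Slc25a51 encodes the NAD carrier of mitochondria and measured 178, 156 and 169 CPM in vehicle and 192, 156 and 164 in CePPy. The groups overlapped, with CePPy 1 above all vehicle libraries, at a log2 fold change of 0.02 (SE 0.10). The sign turned with library totals in place of TMM. The peroxisomal carrier gene Slc25a17, which serves cofactors such as coenzyme A, was at 111 ± 5.65 and 106 ± 11.7 CPM. Pyrimidine nucleotides are carried by the products of Slc25a33 and Slc25a36, at 9.05 ± 1.01 and 10.6 ± 1.08 CPM and at 67.8 ± 4.56 and 72.0 ± 5.92 CPM. Slc25a47, a carrier best known from liver, was at 0.353 to 1.07 CPM, and the testis isoform Slc25a31 had 4 and 2 counts in CePPy 1 and CePPy 2 and 0 in the other 4 libraries. Of 13 nucleotide carriers 10 were tested, 6 with higher and 4 with lower fitted values, and 1 (Slc25a23) had an unadjusted edgeR p under 0.05.

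Of 5 cofactor carriers 4 had higher fitted values, where 50.5% of all genes did, and the median log2 fold change was 0.27. Among the 5, 2 had an unadjusted edgeR p under 0.05, both higher (9.65% of all genes). Slc25a42, which imports coenzyme A, measured 37.6, 26.2 and 27.0 CPM in vehicle and 61.9, 34.0 and 59.1 in CePPy. CePPy 1 and CePPy 3 were above all vehicle libraries and CePPy 2 was below vehicle 1. The log2 difference of 0.77 (SE 0.24, edgeR adjusted p = 0.160; DESeq2 adjusted p = 0.0224) was the largest among the members. It was 0.62 without CePPy 1 and 0.9999 without CePPy 2. Slc25a16, also linked to coenzyme A, measured 83.2, 73.9 and 77.9 CPM in vehicle and 108, 83.6 and 108 in CePPy. These groups did not overlap, though CePPy 2 exceeded vehicle 1 by less than 1 CPM (log2 fold change 0.35, SE 0.11, edgeR adjusted p = 0.172). The folate and FAD carrier gene Slc25a32 did not overlap either, at 15.2 ± 1.81 and 18.4 ± 1.53 CPM (edgeR adjusted p = 0.286). The S-adenosylmethionine carrier gene Slc25a26 measured 12.1 ± 0.981 and 12.6 ± 0.869 CPM.

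**Figure D3:**
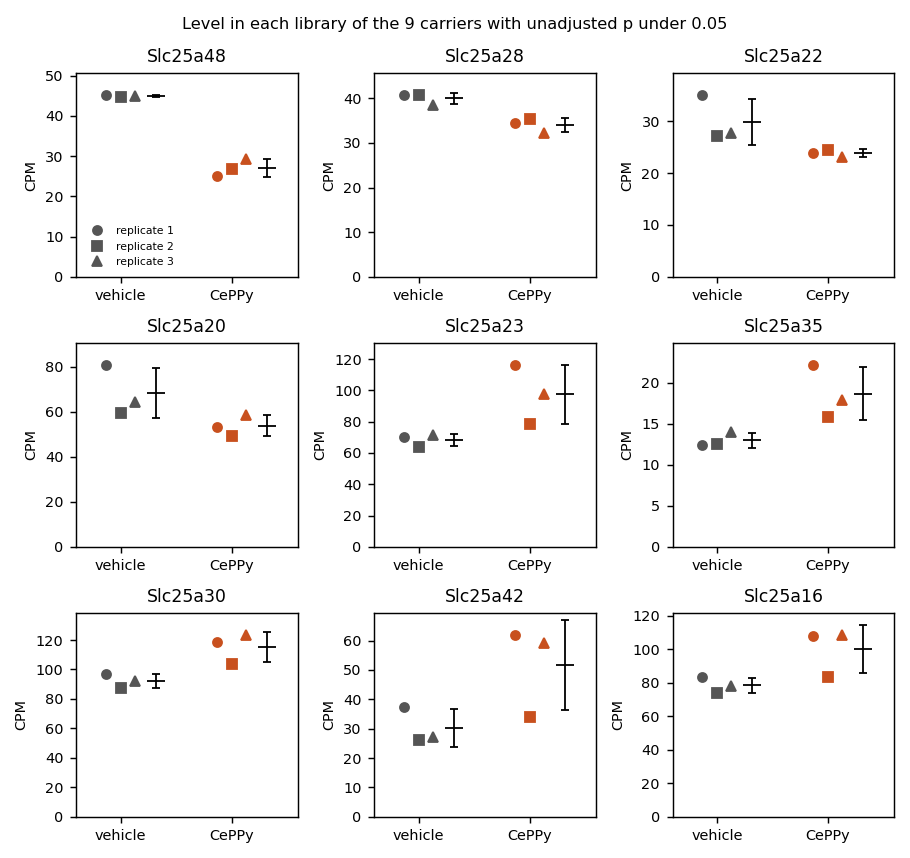
CPM (y, from 0) in each library of the 9 Slc25 genes with an unadjusted edgeR p under 0.05, with vehicle in grey and CePPy in orange, marker shape for the replicate, and the mean with SD (n = 3) in black. The groups are apart in each panel but that of Slc25a42, where CePPy 2 at 34.0 lies below vehicle 1 at 37.6, and the vehicle libraries of Slc25a48 lie within 1 CPM of each other.

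Among amino acid carriers, the relatives Slc25a12 and Slc25a13, which encode the aspartate/glutamate carriers of the malate-aspartate shuttle, had fitted values of opposite sign. Slc25a13 (citrin) measured 106, 97.8 and 103 CPM in vehicle and 139, 104 and 123 in CePPy, with CePPy 2 inside the vehicle range and a difference of 0.26 on the log2 scale (SE 0.11; edgeR adjusted p = 0.269; 0.15 without CePPy 1). Slc25a12 (aralar) measured 88.2, 79.0 and 83.5 CPM and then 83.3, 76.1 and 77.4, overlapping through CePPy 1 (-0.08, SE 0.08). The glutamate carrier gene Slc25a22 measured 35.03, 27.1 and 27.6 CPM in vehicle and 23.9, 24.5 and 23.0 in CePPy. All CePPy values were below all vehicle values, and vehicle 1 stood above the other vehicle libraries. Its log2 fold change was -0.33 (SE 0.12, edgeR adjusted p = 0.196), and -0.20 without vehicle 1. The other glutamate carrier gene, Slc25a18, had 0 to 10 counts per library and was not tested.

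Slc25a15, the ornithine/citrulline carrier of the urea cycle, measured 164, 142 and 165 CPM in vehicle and 155, 120 and 128 in CePPy. The groups overlapped through vehicle 2 and CePPy 1 (log2 difference -0.22, SE 0.12, edgeR adjusted p = 0.338). Its close relative Slc25a2 had 0 to 5 counts per library and was not tested. The remaining members were at 21.8 ± 1.93 and 23.8 ± 4.80 CPM for Slc25a38, the glycine carrier that supplies heme synthesis, and at 44.6 ± 3.15 and 50.2 ± 6.30 CPM for Slc25a44, the carrier of branched-chain amino acids. Slc25a29, which carries basic amino acids, was low at 2.13 ± 0.422 and 2.80 ± 0.707 CPM. Of 7 amino acid carriers tested, 4 had higher and 3 lower fitted values, with a median of 0.12.

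Carboxylate carriers had the highest median log2 fold change of the 9 classes, 0.35 over 4 genes, and none reached an unadjusted edgeR p under 0.05. Slc25a10, the dicarboxylate carrier that exchanges malate and succinate for phosphate, measured 220, 175 and 196 CPM in vehicle and 289, 166 and 323 in CePPy. CePPy 2 was the lowest of all 6 libraries while CePPy 1 and CePPy 3 were the highest (log2 fold change 0.39, SE 0.23, edgeR adjusted p = 0.379). Without CePPy 2 the value was 0.63 and passed the test (edgeR adjusted p = 0.0334), and without CePPy 3 it was 0.21. Slc25a11, the oxoglutarate/malate carrier, was likewise lowest in CePPy 2, with 111, 103 and 102 CPM in vehicle and 166, 99.7 and 125 in CePPy (0.31, SE 0.17, edgeR adjusted p = 0.358). It was 0.098 without CePPy 1 and 0.47 without CePPy 2. Its exons share 8.92% of their bases with Rnf167 on the opposite strand. Slc25a21, the carrier of oxoadipate and related acids, measured 6.96, 6.30 and 9.80 CPM and then 15.5, 7.60 and 12.6 (0.63, SE 0.28, edgeR adjusted p = 0.271; 0.40 without CePPy 1). The citrate carrier gene Slc25a1, which exports citrate for lipid synthesis, was at 125, 130 and 136 CPM in vehicle and 141, 132 and 115 in CePPy (-0.02, SE 0.09). Among the CePPy libraries, CePPy 2 was also lowest for the proximal tubule markers given above, for 8 thick limb and distal markers (2.17, 0.45 and 1.29 above the vehicle mean in CePPy 1, 2 and 3, mean log2 level) and for 7 collecting duct markers (0.78, 0.36 and 0.65). All 8 and all 7 had higher fitted values, and DESeq2 called 4 and 3 of them higher (3.43% of all genes). The part of these markers in the carrier values was not tested.

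The only carnitine carrier, Slc25a20, brings acylcarnitines into the matrix for fatty acid oxidation. It measured 80.8, 59.6 and 64.4 CPM in vehicle and 53.5, 49.3 and 58.6 in CePPy. Every CePPy library was below every vehicle library, but CePPy 3 and vehicle 2 were only about 1 CPM apart, and vehicle 1 stood high. The difference of -0.34 on the log2 scale (SE 0.13; edgeR adjusted p = 0.204) was -0.21 without vehicle 1. Cpt1a, the enzyme that makes the acylcarnitines, was at 415 ± 63.7 and 304 ± 26.2 CPM (-0.45, SE 0.13, edgeR adjusted p = 0.149; DESeq2 adjusted p = 0.0277).

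Genes grouped as uncoupling carriers by their likeness to the uncoupling protein of brown fat were led by Slc25a30, a kidney-enriched member. Slc25a30 measured 96.8, 87.6 and 92.2 CPM in vehicle and 119, 104 and 123 in CePPy, with no overlap. Its log2 fold change of 0.32 had a small SE of 0.09 (edgeR adjusted p = 0.139; DESeq2 adjusted p = 0.0373) and ranged from 0.27 to 0.39 with a library left out. Slc25a14 and Slc25a27, better known from neurons, were low, at 5.73 ± 0.648 and 5.58 ± 1.07 CPM and at 1.116 ± 0.286 and 1.36 ± 0.295 CPM.

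Iron enters mitochondria through the mitoferrins. Slc25a28 (mitoferrin 2), the form of most tissues, measured 40.7, 40.6 and 38.6 CPM in vehicle and 34.5, 35.3 and 32.1 in CePPy. The spread within each group was small and the groups were apart (log2 fold change -0.23, SE 0.08, edgeR adjusted p = 0.178). Slc25a37 (mitoferrin 1), the erythroid form, measured 35.4, 33.3 and 36.2 CPM and then 28.1, 36.4 and 36.8, with CePPy 1 lowest. Its value was -0.05 (SE 0.12) over all libraries and 0.07 without CePPy 1. Fech, which inserts iron into heme, was at 153 ± 9.45 and 134 ± 1.99 CPM (-0.20, SE 0.08, edgeR adjusted p = 0.227). The summed level of 6 erythroid markers was 298 to 366 CPM in vehicle and 281, 307 and 407 in CePPy 1, 2 and 3.

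None of the 3 phosphate and glutathione carriers reached an unadjusted edgeR p under 0.05. Slc25a3 brings in the phosphate used to make ATP, and also copper; its libraries read 918, 875 and 932 CPM in vehicle and 971, 808 and 835 in CePPy (log2 difference -0.06, SE 0.10). Slc25a39, the glutathione carrier, was second per length, at 171 ± 1.74 RPKM in vehicle and 177 ± 25.9 in CePPy. It measured 474, 475 and 466 CPM in vehicle, a spread of 4.78 (SD), and 568, 436 and 456 in CePPy (0.04, SE 0.11). Its paralogue Slc25a40 was far lower, at 1.05 ± 0.0271 and 1.1204 ± 0.272 RPKM. All 3 genes had overlapping groups.

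Members without a settled substrate held both the clearest lower value and a clear higher one. Slc25a48 (chromosome 13, 56438355 to 56474239, plus strand, GRCm38) encodes a carrier recently linked to choline import. It measured 45.2, 44.7 and 45.04 CPM in vehicle and 25.1, 26.8 and 29.3 in CePPy. The vehicle libraries were almost equal, and all CePPy libraries, CePPy 2 included, lay far below them. The log2 fold change was -0.73 (SE 0.09, edgeR adjusted p = 0.0739; DESeq2 adjusted p = 1.93e-08) and ranged from -0.79 to -0.68 with a library left out. It passed the edgeR test without CePPy 2 (adjusted p = 0.0172) and with no filter on low counts (adjusted p = 0.0365, where 0.314% of all genes passed).

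Slc25a35 (chromosome 11, 68968131 to 68974365, plus strand) measured 12.4, 12.5 and 14.1 CPM in vehicle and 22.2, 15.8 and 17.9 in CePPy. The groups were apart, by 0.52 on the log2 scale (SE 0.14; edgeR adjusted p = 0.139; DESeq2 adjusted p = 0.0363). Exons of Rangrf on the opposite strand cover 31.3% of its exon bases, and the sources used here do not give the strand setting of the counting. Rangrf itself had a log2 fold change of -0.50. Slc25a45 measured 39.2, 34.5 and 41.6 CPM and then 40.0, 29.5 and 27.4, overlapping through CePPy 1 (-0.25, SE 0.15, edgeR adjusted p = 0.400; -0.43 without CePPy 1). Slc25a46, an outer membrane protein of mitochondrial dynamics, was at 63.9 ± 3.66 and 60.6 ± 3.03 CPM. Slc25a34 was at 19.5 ± 3.63 and 17.9 ± 5.44 CPM, and Slc25a43 and Slc25a53 stayed under 1 CPM in every library.

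**Figure D4:**
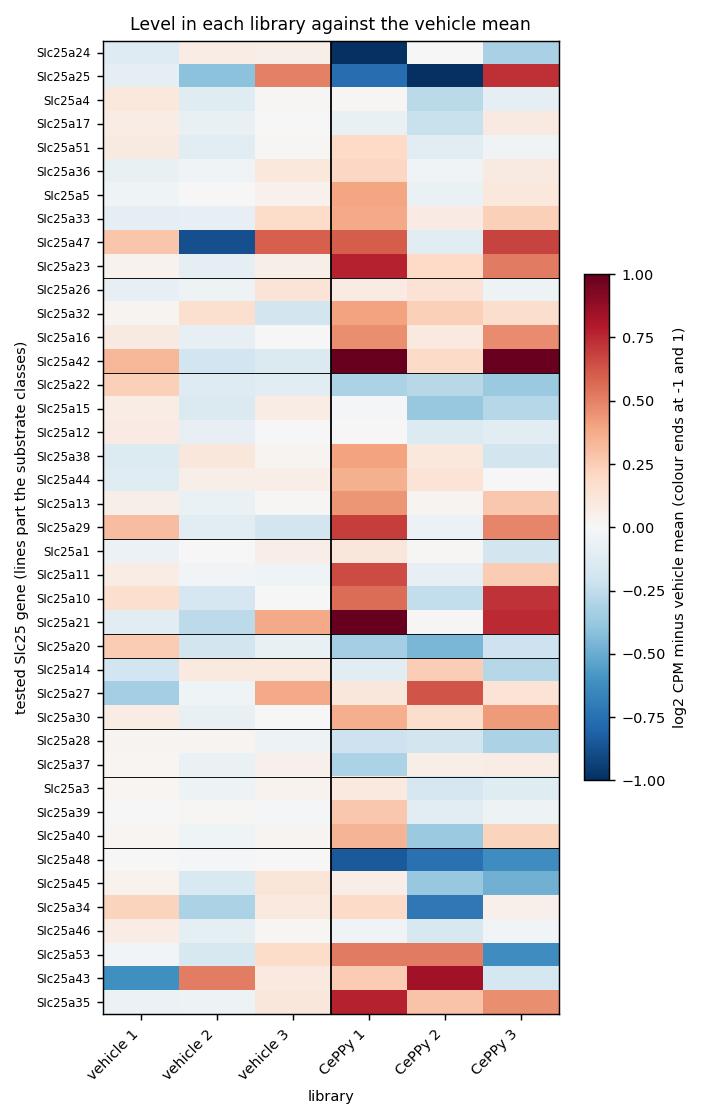
Log2 CPM minus the vehicle mean in each of the 6 libraries (columns) for 41 tested Slc25 genes (rows, by substrate class), red above and blue below the vehicle mean, with colour ending at -1 and 1. Of the CePPy columns, CePPy 1 is farthest from the vehicle mean in 18 of the 41 rows (against 50.3% of all tested genes), and Slc25a48 is blue in all CePPy libraries.

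Across the CePPy libraries the levels of the carriers varied. The summed level of all members was 4664, 4376 and 4677 CPM in vehicle and 5261, 4142 and 4762 in CePPy, so CePPy 1 was the highest and CePPy 2 the lowest of the 6. As a share of all counts the family took 0.450% to 0.477% in vehicle and 0.4997%, 0.421% and 0.480% in CePPy 1, 2 and 3. Among the 24 members with higher fitted values, CePPy 2 was the lowest CePPy library for 17 (70.8%, against 46.8% of all genes with higher values). It was also the lowest CePPy library for 10 of the 18 members with lower values (55.6%, against 19.4%). Spread was wider in CePPy: over the 33 members with a mean of at least 10 CPM, the median coefficient of variation was 6.77% in vehicle and 13.5% in CePPy, and it was higher in CePPy for 27.

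Counts of calls turned on CePPy 2. Without it, edgeR called 7 members at an adjusted p under 0.05 (6 higher and 1 lower), where 5.17% of all genes were called (2.98% higher and 2.19% lower). They were Slc25a48, Slc25a23, Slc25a42, Slc25a16, Slc25a10, Slc25a30 and Slc25a35. The groups then did not overlap for 20 of 42 members, against 42.9% of all genes, and without CePPy 1 for 16, against 36.6%. With any other library left out, edgeR called 0 members, where 0% to 0.0381% of all genes were called (0.0128% without CePPy 1), and 6 to 12 members had an unadjusted p under 0.05 (12.7% to 17.2% of all genes).

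Ratios between related carriers within a library do not depend on how libraries are scaled. Of 10 pairs with both genes tested, 4 had groups that did not overlap, each at the smallest two-sided p that an exact permutation test of 3 against 3 can give (p = 0.1; 0.25 adjusted over the 10 pairs), so none passed. The share without overlap over other pairs of genes was not counted. Per length, the log2 ratio of Slc25a12 to Slc25a13 was -1.22, -1.26 and -1.26 in vehicle and -1.69, -1.40 and -1.62 in CePPy. Citrin transcripts thus exceeded aralar transcripts in every library, by more in CePPy, with a difference of -0.33. The ratio of Slc25a4 to Slc25a5 was -1.69, -1.94 and -1.87 in vehicle and -2.21, -2.03 and -2.03 in CePPy (difference -0.26). The ratio of Slc25a33 to Slc25a36 differed by 0.15 and that of Slc25a45 to Slc25a48 by 0.47 (0.25 without CePPy 1). For Slc25a45 to Slc25a48, CePPy 3 (0.192) lay only just above vehicle 3 (0.173). Overlapping groups were seen for the mitoferrins (difference -0.17, and -0.066 to -0.31 with a library left out), for Slc25a16 against Slc25a42 (-0.40) and for the other 4 pairs.

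**Figure D5:**
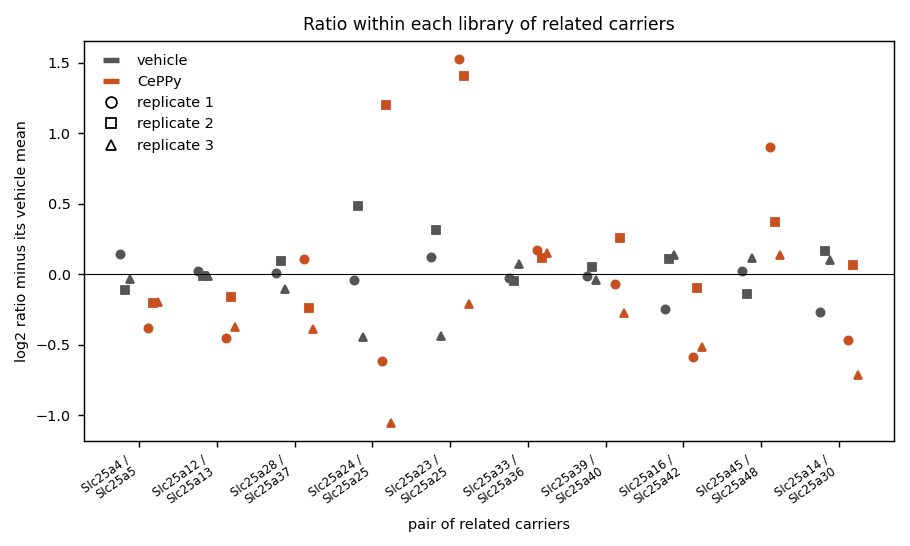
Log2 ratio of 10 pairs of related Slc25 genes within each library, minus the vehicle mean of that ratio (y), with vehicle in grey, CePPy in orange and marker shape for the replicate. Groups are apart for 4 pairs (Slc25a4/Slc25a5, Slc25a12/Slc25a13, Slc25a33/Slc25a36 and Slc25a45/Slc25a48), and pairs with Slc25a25 scatter most.

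Genes that serve the carriers were listed by function. Of 16 genes for the import machinery that brings carriers into the inner membrane, 14 had lower fitted values in CePPy (median log2 fold change -0.21). In the list, 7 (43.8% of the list, against 9.37% of all genes) were lower at an unadjusted edgeR p under 0.05. At that threshold 1 (Tomm6, named after its values were seen) was higher (9.65% of all genes). None passed after adjustment, while DESeq2 called 2 lower (3.23% of all genes). Tomm5, a small subunit of the outer membrane entry pore, was at 57.2 ± 1.11 and 43.8 ± 1.72 CPM (-0.38, SE 0.07, edgeR adjusted p = 0.0899). Tomm20, the receptor at that pore, was at 220 ± 7.97 and 171 ± 10.03 CPM (-0.37, SE 0.08, edgeR adjusted p = 0.109). Timm13 and Timm8a1, chaperones of the space between the membranes, were at 78.7 ± 2.90 and 65.1 ± 5.87 CPM and at 37.4 ± 2.49 and 31.7 ± 0.485 CPM. The summed level of the list was 961 to 973 CPM in vehicle and 884, 811 and 835 in CePPy 1, 2 and 3, so all CePPy libraries were below all vehicle libraries.

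Relatives outside the naming rule were mixed. Ucp2, the uncoupling protein gene expressed here, was at 232 ± 54.9 and 193 ± 49.2 CPM, Ucp3 was at 0.971 ± 0.612 and 0.401 ± 0.374 CPM, and Ucp1 was too low to be tested. The pyruvate carrier subunit genes Mpc1 and Mpc2 had higher values, at 113 ± 8.81 and 141 ± 30.9 CPM and at 122 ± 1.75 and 157 ± 37.7 CPM (edgeR adjusted p = 0.300 and 0.257). None of the 3 outer membrane channel genes Vdac1, Vdac2 and Vdac3 reached an unadjusted edgeR p under 0.05. Of 22 partner enzymes tested, 1 was higher (Mdh1; 9.65% of all genes) and 5 were lower (9.37% of all genes) at an unadjusted edgeR p under 0.05. The 5 were Cpt1a, Got2 and Fech, and, named after their values were seen, Acly and Alas1. EdgeR called none after adjustment, and DESeq2 called Mdh1 higher (3.43% of all genes) and Cpt1a and Got2 lower (3.23% of all genes). In the malate-aspartate shuttle, Mdh1 was at 548 ± 23.2 and 832 ± 259 CPM (0.60, SE 0.20, edgeR adjusted p = 0.182; DESeq2 adjusted p = 0.0363) and Got2 at 390 ± 3.77 and 329 ± 17.0 CPM (-0.25, SE 0.08, edgeR adjusted p = 0.172; DESeq2 adjusted p = 0.0473).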

How the data were processed

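The authors deposited whole-number read counts per gene in 1 table with 1 column per library and no normalization, per the file headers, and columns were matched to samples through the labels. Per the labels, 2 µg of total RNA per library was used with an mRNA library kit. The submitters' processing notes name TopHat2, Cufflinks, DESeq and GRCm38; the counting program, its strand setting and the annotation release stay not given in the sources used here. Coordinates and exon lengths are from GENCODE M21. Low counts were removed with filterByExpr of edgeR 4.0.16 (R 4.3.3), libraries were scaled by TMM, and groups were compared with the edgeR quasi-likelihood test, treatment as the only term, with Benjamini-Hochberg adjustment over all 15416 genes tested and a threshold of 0.05. The SE is the log2 fold change divided by the square root of the test's F. For ratios of paralogues, 0.5 was added to each count. DESeq2 1.42.0, limma 3.58.1 (voom), other scalings, no filter, a replicate block and leaving out each library were alternatives. Described library by library were the 7 members with the lowest p in each direction and 10 more fixed by role, the others by mean or range, and up to 4 genes of each list by lowest p. The table's 2995 provisional rows named NewGene were kept. The members and lists were chosen with earlier results of these data known. Replicates differed beyond sampling noise (chi-square per degree of freedom 19.7 to 106). For 1 member, counted in the totals, values are not reported here.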

Additional observations from a re-analysis of the deposited data

How the results depend on the processing

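Among the 42 members the count past the threshold was 0 by edgeR, 0 by limma-voom, 5 by DESeq2 and 1 (Slc25a48) by edgeR with no filter on low counts; the cause of the difference between tools was not tested. With 1 library left out it ranged from 0 to 7 (7 without CePPy 2). The count of members whose groups do not overlap, 9 with all libraries, then ranged from 12 to 20. Over all genes the share without overlap also rose, from 26.3% with all libraries to 36.6% without CePPy 1 and 42.9% without CePPy 2. That share was not counted with any other library left out. The replicate block left 0 calls among members and 0 over all genes, with 13 members at an unadjusted p under 0.05 in place of 9. The share of all genes at that unadjusted threshold was not counted with the block. Correlations between the deviations of same-numbered libraries were -0.15, 0.08 and -0.03. With 3 libraries per group these values cannot decide whether the numbers mark pairs. The median stayed between 0.02 and 0.11 (log2) with a library left out. Of the 24 members chosen by rule, 4 changed sign. Slc25a51 was -0.0059 with library totals only and ranged from -0.068 to 0.083 with a library left out; Slc25a1 ranged from -0.078 to 0.065, Slc25a37 from -0.11 to 0.068 and Slc25a39 from -0.079 to 0.12. Leaving out libraries of the paralogue ratios was added after seeing the data, and the ratio of Slc25a24 to Slc25a25 then ranged from -0.84 to 0.29 and that of Slc25a39 to Slc25a40 from -0.17 to 0.093. Without changing sign, the ratios of Slc25a23 to Slc25a25 ranged from 0.60 to 1.47, of Slc25a14 to Slc25a30 from -0.59 to -0.20 and of Slc25a45 to Slc25a48 from 0.25 to 0.64. At this depth the 5 members with 0 to 10 counts per library could not be compared.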
